A study of Mus musculus with 32 samples.

Results

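Kidneys of 4 male C57BL/6 mice collected on Day 2 after cisplatin were compared with those of 4 male mice collected on Day 0. The 8 libraries were chosen by the sex and day in their titles, out of 32 in the series. All mice were of wild-type genotype and, by the study's methods, 6 to 8 weeks old, with 4 biological replicates in a group. The Day 2 males were labelled as treated with cisplatin, which was injected once into the peritoneum at 20 mg/kg. The treatment entry of the Day 0 males read NA, so the controls carried no vehicle injection that the labels name. The other 24 libraries came from males at Day 3 and Day 5 and from females at Day 0, 2, 3 and 5. RNA was taken from whole kidney, so fewer cells of a type and less RNA per cell cannot be told apart in any of the values given here. The hour of collection was not given in the sources used here.

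Cisplatin is a platinum drug that reaches proximal tubule cells through the organic cation transporter Oct2 (Slc22a2) and the copper transporter Ctr1 (Slc31a1), and it crosslinks DNA. Crosslinks stall RNA polymerase and stabilise p53, a transcription factor that switches on genes of cell cycle arrest, feedback control and cell death. Injured tubule cells lower their transporters and start to make proteins such as KIM-1 (Havcr1) and NGAL (Lcn2). Many kidney genes also follow the circadian clock, in which BMAL1 (Arntl) and NPAS2 drive the period genes and the D-box factors Dbp and Tef through E-boxes in their promoters, and are repressed in turn.

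The libraries held between 16502107 and 30740491 counts each, and a pair of Day 0 libraries stood apart from the rest. Pearson's r across genes, between a library and the mean of the other 3 of its day on log2 CPM (counts scaled to library size with TMM factors), was 0.972 to 0.989 on Day 2. On Day 0 it was 0.975 and 0.979 in mice 1 and 2, but 0.904 in mouse 3 and 0.945 in mouse 4 (genes are not independent replicates). Day 0 mouse 3 was the library farthest from its group for 1354 genes, and 40 genes without a count there were at 5 CPM or more in each of the other 7 libraries. Day 0 mouse 4 was the farthest library for 169 genes, against 8 and 9 for Day 0 mice 1 and 2, and transcripts of the mitochondrial genome took 23.97% of its counts against 6.46% to 14.0% elsewhere. On Day 2, mouse 4 was the farthest library for 288 genes, against 13 to 26 for the other 3. Defining genes of proximal tubule cells were present in every library, with a summed level of 17330 to 21590 CPM on Day 0 and 12760 to 17860 CPM on Day 2. None of the 10 passed in edgeR, and 3 had an unadjusted p under 0.05, beside 29.0% of all genes. DESeq2 called 1 upward and 2 downward, beside 7.99% and 10.3%.

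Which genes differed between Day 2 and Day 0 was tested with edgeR's quasi-likelihood test on 16051 genes. Genes passed when their p, adjusted by the Benjamini-Hochberg method, was under 0.05. A gene that passed was called a differentially expressed gene (DEG) when its log2 fold change was beyond 1.5 in either direction. The study's threshold was a log fold change over 1.5, for which it named no base. Of the genes tested, 83 were DEGs with higher levels on Day 2 (0.517%) and 32 were DEGs with lower levels (0.199%), and 290 (1.81%) and 217 (1.35%) passed in each direction at any fold. The 4 Day 2 values lay above all 4 Day 0 values for 12.9% of genes and below them for 11.8%, and 113 of the 115 DEGs were among these. Most calls lay close to the threshold. The smallest adjusted p was 0.000385, and 4654 genes (29.0%) had an unadjusted p under 0.05.

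How many DEGs were found depended on single mice. Leaving out Day 0 mouse 1 or mouse 2 left 10 and 15 DEGs, whereas leaving out Day 0 mouse 3 gave 270 and leaving out Day 0 mouse 4 gave 475. Without Day 2 mouse 1, 2, 3 or 4 there were 38, 12, 13 and 12. With Day 0 mice 3 and 4 both left out, an alternative chosen after the data were seen that leaves 2 mice against 4, 395 genes were DEGs upward and 76 downward, and 9.99% and 11.2% of 16798 genes passed in each direction. All 115 DEGs kept their sign in every fit with 1 mouse left out. Among them 10 passed in all 8 of these fits, and every other call named here except that of Peg3 was lost in at least 1 of them.

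The 10 genes are given with their Ensembl identifiers and the positions in the count table, which match build GRCm38. The clock genes are Per1 (ENSMUSG00000020893, chr11:69095217-69109960), Per2 (ENSMUSG00000055866, chr1:91415982-91459324), Wee1 (ENSMUSG00000031016, chr7:110122046-110143286) and Npas2 (ENSMUSG00000026077, chr1:39193731-39363236). The others are Slc16a1 (ENSMUSG00000032902, chr3:104638668-104658462), Ppard (ENSMUSG00000002250, chr17:28232700-28301474), Ethe1 (ENSMUSG00000064254, chr7:24587543-24608925), Dsp (ENSMUSG00000054889, chr13:38151294-38198577), Rapgef5 (ENSMUSG00000041992, chr12:117516479-117759737) and 2210011C24Rik (ENSMUSG00000074217, chr8:84010222-84012171), a gene of unknown function.

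**Figure D1:**
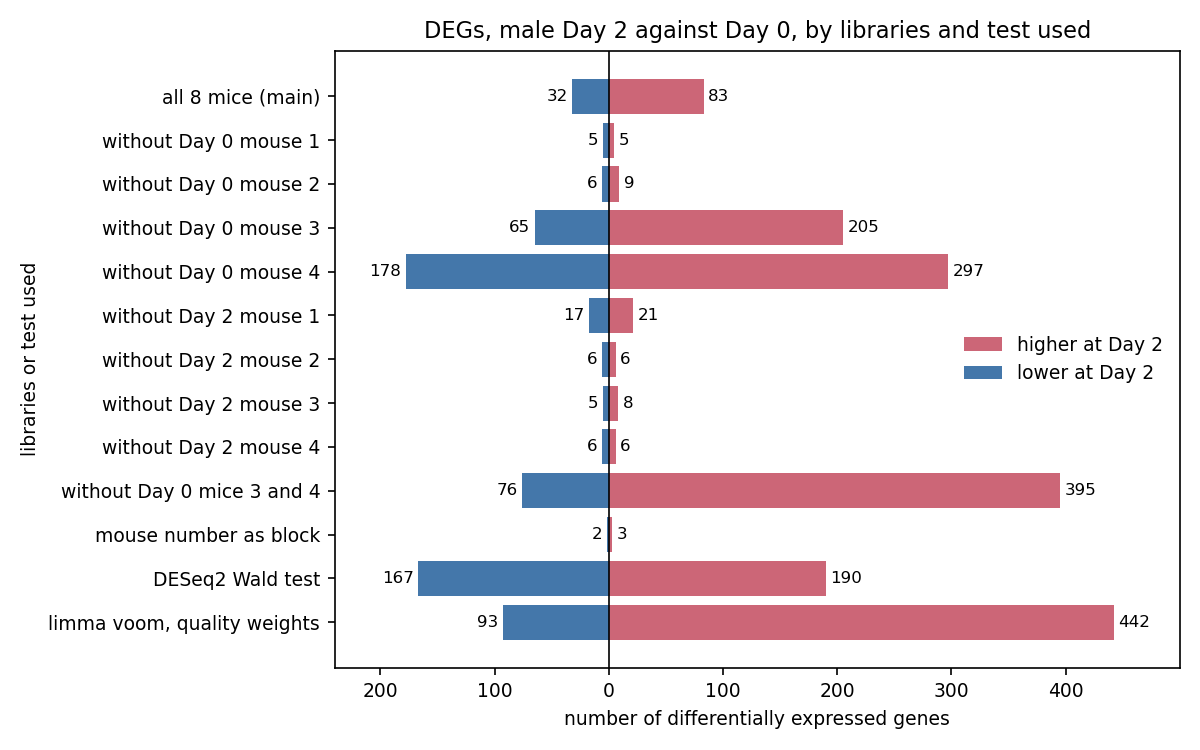
Number of DEGs higher (right, red) and lower (left, blue) on Day 2 than on Day 0 in male kidney, for all 8 mice, with each mouse left out, and under other tests. The count falls to 10 or 15 without Day 0 mouse 1 or 2 and rises to 270 or 475 without Day 0 mouse 3 or 4.

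Genes of the circadian clock held 4 of the 10 calls that stood in all 8 fits with 1 mouse left out. The list of clock output genes, which holds the period, D-box and Rev-erb arms, had 10 of 14 tested members that rose and none that fell, beside 1.81% and 1.35% of all genes, and the DESeq2 Wald test gave 10 and 1 beside 7.99% and 10.3%. Its median log2 fold change was 1.59, against 0.03 over all genes tested. The activators Arntl and Npas2 fell. Their falls were the largest among protein-coding DEGs whose groups do not overlap and whose higher group averages 1 CPM or more.

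Per1, a period gene that also responds to glucocorticoid, had 15.3, 13.8, 19.9 and 15.8 CPM in Day 0 mice 1 to 4 and 86, 96.6, 78.8 and 95.9 CPM in Day 2 mice 1 to 4. All Day 2 mice stood far above all Day 0 mice, with a log2 fold change of 2.46 ± 0.16 (SE, adjusted p = 0.000385). Per2 went from 5.23, 4.95, 3.89 and 7.02 CPM to 41, 46.1, 52.2 and 46.4 CPM, with no overlap (log2 fold change 3.14 ± 0.20 SE, adjusted p = 0.000385). Both genes passed in all 8 fits with 1 mouse left out. Per3 rose from 7, 5.23, 3.06 and 11.9 CPM to 54.4, 52.8, 68 and 43.9 CPM (log2 fold change 3.02 ± 0.38 SE, adjusted p = 0.0143) and lost its call in 5 of these 8 fits.

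Dbp, the D-box activator that is a direct output of the clock, was at 8.58, 8.6, 1.3 and 36 CPM on Day 0 and at 195, 131, 157 and 140.4 CPM on Day 2. Day 0 mice 3 and 4 marked the low and high ends of the Day 0 range, while mice 1 and 2 lay close together. With all mice Dbp had a log2 fold change of 3.52 ± 0.78 (SE, adjusted p = 0.0483), which became 4.16 with adjusted p = 0.000452 without Day 0 mice 3 and 4. The change lay between 3.12 and 4.67 in the fits with 1 mouse left out, highest without Day 0 mouse 4. Ciart, a repressor of BMAL1, went from 0.852, 0.45, 1.13 and 2.36 CPM to 19.4, 12.6, 13.7 and 8.56 CPM (log2 fold change 3.51 ± 0.48 SE, adjusted p = 0.0207), and here too Day 0 mouse 4 was the highest of its group. Tef, another D-box factor, rose from 163, 164, 154 and 146 CPM to 339, 373, 430.1 and 344 CPM, with little spread in either group (log2 fold change 1.24 ± 0.15 SE, adjusted p = 0.0102).

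Among the other output genes, Wee1, a kinase that holds back mitosis, rose in all 8 fits with 1 mouse left out (log2 fold change 1.70 ± 0.17 SE, adjusted p = 0.00477). Bhlhe40 (log2 fold change 1.56 ± 0.22 SE, adjusted p = 0.0207), a repressor of E-box genes, and Nr1d2 (log2 fold change 1.62 ± 0.26 SE, adjusted p = 0.0307), a Rev-erb repressor, also rose, as did the deubiquitinase Usp2 by 0.998 on the log2 scale. The 4 members that did not pass were Hlf at 0.71, Nr1d1 at 0.52 (1.30 without Day 0 mouse 4, adjusted p = 0.0391), Bhlhe41 at 1.12 and Nfil3 at -1.49, the last a repressor of D-box genes, with adjusted p = 0.0524 in edgeR and 0.00127 in DESeq2.

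Npas2 was at 25.5, 24.7, 11.8 and 15.3 CPM on Day 0 and 1.4, 0.926, 0.734 and 1.39 CPM on Day 2. No Day 2 mouse came near a Day 0 mouse. The log2 fold change of -4.10 ± 0.35 (SE, adjusted p = 0.00282) passed in all 8 fits with 1 mouse left out, in which it lay between -4.30 and -3.96. Arntl went from 21.4, 22.8, 13.6 and 10.04 CPM to 1.04, 3.15, 1.79 and 1.81 CPM (log2 fold change -3.12 ± 0.40 SE, adjusted p = 0.0149), and Day 0 mice 3 and 4 were the lowest of their group for both activators. It passed in 4 of the 8 fits. The day of collection and the hour of collection cannot be told apart for these genes.

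**Figure D2:**
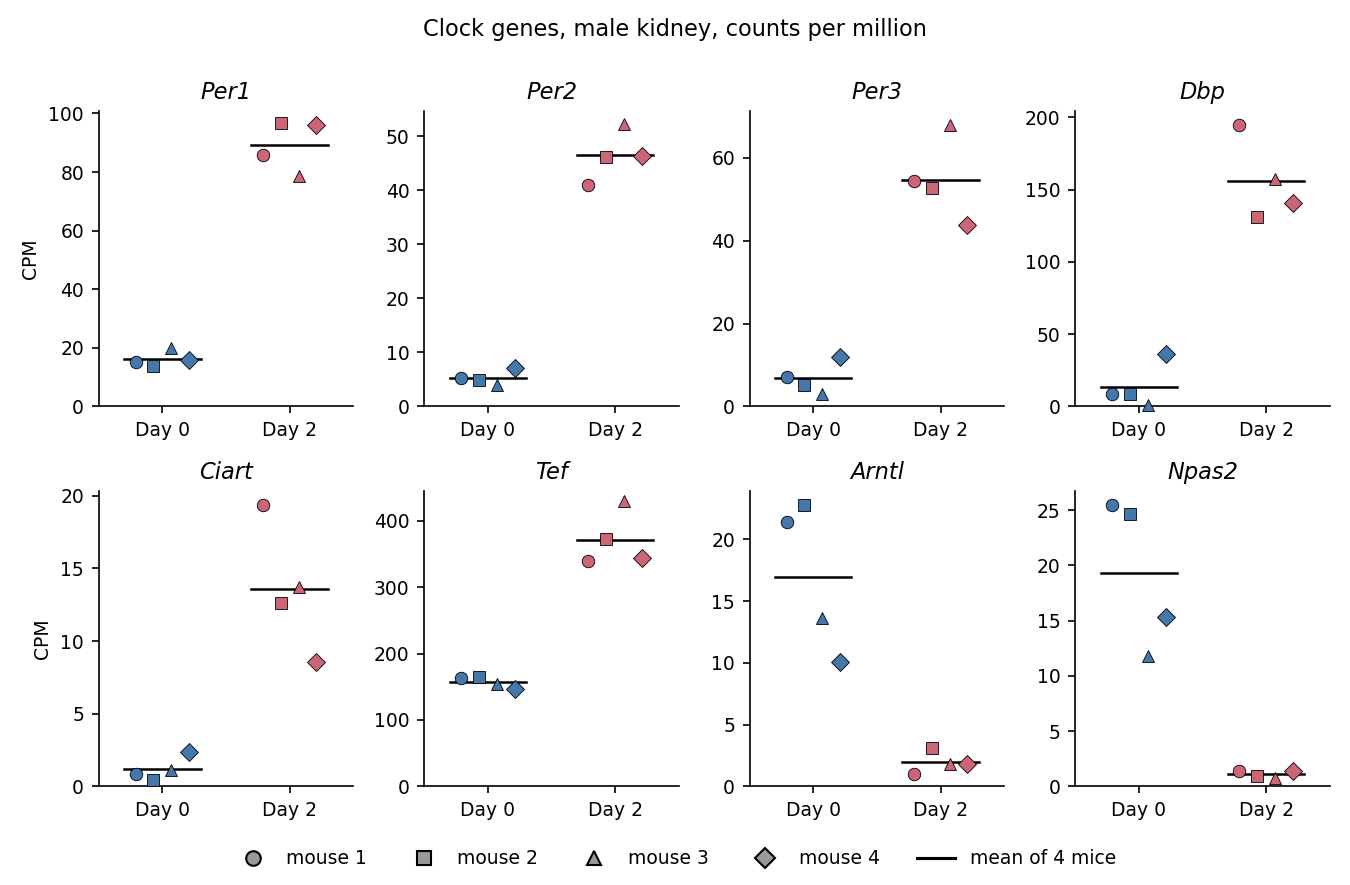
Level of 8 clock genes in CPM (linear axis from 0) in each male mouse on Day 0 (blue) and Day 2 (red), with a symbol for each mouse number and a line at the group mean. The 6 output genes are higher and Arntl and Npas2 lower in every Day 2 mouse than in every Day 0 mouse, and Day 0 mouse 4 lies nearest to Day 2 for Per2, Per3, Dbp, Ciart and Arntl.

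The 250 bases before the start site were looked up for the 10 output genes that rose and for Arntl and Npas2 in the RefSeq promoter table (build GRCm38.p6), which held 9 of the 12. Both strands were searched for an E-box (CACGTG, the site of the BMAL1 and NPAS2 dimer) and a D-box (TTATGTAA, the site of Dbp and Tef). A window is shown for Ciart, Per1 and Per3, which carried several sites or belong to the period genes above, with the sites in capitals. The sequence of Ciart lies at chr3:95882229-95882478 on the minus strand, that of Per1 at chr11:69098699-69098948 on the plus strand, and that of Per3 at chr4:151044666-151044915 on the minus strand.
Ciart: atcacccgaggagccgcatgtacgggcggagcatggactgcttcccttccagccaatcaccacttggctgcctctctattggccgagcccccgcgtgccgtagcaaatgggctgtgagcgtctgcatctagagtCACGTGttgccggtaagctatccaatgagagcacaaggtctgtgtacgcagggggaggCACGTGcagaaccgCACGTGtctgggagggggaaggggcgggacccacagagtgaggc
Per1: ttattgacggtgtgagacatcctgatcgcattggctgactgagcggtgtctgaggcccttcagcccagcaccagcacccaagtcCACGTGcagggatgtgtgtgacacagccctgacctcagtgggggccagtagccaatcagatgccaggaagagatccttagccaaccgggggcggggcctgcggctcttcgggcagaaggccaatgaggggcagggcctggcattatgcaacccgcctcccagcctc
Per3: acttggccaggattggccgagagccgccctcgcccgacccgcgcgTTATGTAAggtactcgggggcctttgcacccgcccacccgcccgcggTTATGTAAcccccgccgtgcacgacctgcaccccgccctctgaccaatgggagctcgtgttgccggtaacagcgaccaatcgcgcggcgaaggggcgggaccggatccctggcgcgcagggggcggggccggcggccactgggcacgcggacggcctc

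In the windows shown, Ciart holds 3 E-boxes, starting 116, 58 and 44 bases before its start site. Per1 holds 1 E-box at 166 bases, and Per3 holds 2 D-boxes at 205 and 158 bases. Another window of Per1, at chr11:69099902-69100151, holds neither an E-box nor a D-box. The 9 genes had 12 windows, of which 4 held an E-box, both windows of Tef among them, and 1 held a D-box. Among all 32851 promoter windows of this length 6.02% and 0.819% did. A cyclic AMP response element (TGACGTCA) was found in none of the 12 and in 1.55% of all windows. These matches describe the letters of the windows and were not tested as binding sites.

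Targets of p53 rose in part, and in most cases least in Day 2 mouse 1. Of 40 members tested, 9 rose and none fell, beside 1.81% and 1.35% of all genes, with a median log2 fold change of 0.93. All Day 2 values lay above all Day 0 values for 19 members, beside 12.9% of all genes. The members that rose were Ccng1, Mdm2, Btg2, Trp53inp1, Plk2, Eda2r, Psrc1, Gtse1 and Ddias. The DESeq2 Wald test called 22 upward and 1 downward, beside 7.99% and 10.3%. With Day 0 mice 3 and 4 left out, 18 of 42 rose and 1 fell, beside 9.99% and 11.2%, and with any 1 of Day 0 mice 1 or 2 or Day 2 mice 2, 3 or 4 left out, none passed.

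Cdkn1a encodes p21, the inhibitor that p53 uses to stop the cell cycle. It was at 9.31, 11.9, 10.1 and 14.6 CPM on Day 0 and at 11.8, 102, 55.6 and 292 CPM on Day 2. Day 2 mouse 1 lay within the Day 0 range, and the other 3 lay above every Day 0 mouse, mouse 4 by far the most. The log2 fold change of 3.33 ± 0.79 (SE) missed the threshold in edgeR at adjusted p = 0.0535, while it passed in 2 of the 8 fits with 1 mouse left out and in DESeq2 with adjusted p = 5.11e-05. Without Day 2 mouse 4 it was 2.29 (adjusted p = 0.0924). Ccng1, a cyclin-like gene and direct p53 target, had 169, 207, 205 and 180.3 CPM on Day 0 and 241, 685, 622 and 568 CPM on Day 2 (log2 fold change 1.47 ± 0.30 SE, adjusted p = 0.0427). Mdm2, the ubiquitin ligase that degrades p53, had 35.6, 36.3, 28.2 and 35.9 CPM and then 51, 90.5, 78.1 and 96.7 CPM (log2 fold change 1.22 ± 0.21 SE, adjusted p = 0.0334). For both genes Day 2 mouse 1 was the lowest of its group but still above every Day 0 mouse.

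Eda2r, a receptor of the TNF receptor family, was at 0.669, 0.394, 0 and 0.591 CPM on Day 0 and 1.27, 6.52, 7.52 and 16.6 CPM on Day 2 (log2 fold change 4.32 ± 0.95 SE, adjusted p = 0.0482). Psrc1, a spindle gene, went from 0.487, 0.731, 0.879 and 1.11 CPM to 2.44, 8.71, 4.54 and 23.3 CPM (log2 fold change 3.59 ± 0.70 SE, adjusted p = 0.0402). Again mouse 1 was lowest and mouse 4 highest, and with 1 mouse left out the change lay between 3.64 and 4.67 for Eda2r and between 2.68 and 3.92 for Psrc1, lowest for both without Day 2 mouse 4. Plk2, a polo-like kinase (log2 fold change 1.96 ± 0.32 SE, adjusted p = 0.0314), and Ddias, an inhibitor of apoptosis after DNA damage (log2 fold change 3.41 ± 0.55 SE, adjusted p = 0.0314), were also lowest in Day 2 mouse 1. Btg2, an antiproliferative gene, was at 15.7, 18.6, 9.55 and 31.9 CPM on Day 0 and 77.1, 102, 54.8 and 117 CPM on Day 2 (log2 fold change 2.22 ± 0.37 SE, adjusted p = 0.032), with Day 0 mouse 4 highest in its group. Trp53inp1, which promotes autophagy, had a log2 fold change of 1.25 ± 0.23 (SE) and Gtse1, a p53 regulator of the G2 phase, of 2.66 ± 0.54 (SE), which was 2.02 without Day 2 mouse 4 (adjusted p = 0.0731).

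Over the 40 targets, Day 2 mouse 1 had the lowest Day 2 value for 29, against 22.7% of all genes tested, and Day 2 mouse 4 had the highest for 29, against 40.9% of all genes. The median of the list over the Day 0 mean, on the log2 scale, was 0.34, 0.98, 0.84 and 1.34 in Day 2 mice 1 to 4. The corresponding medians of the clock output list were 1.69, 1.63, 1.74 and 1.40, so that the mouse lowest for p53 targets was not lowest for clock genes. Trp53 itself (33.6, 30.5, 20.1 and 25 CPM on Day 0, 29.1, 29.9, 25.9 and 37.7 CPM on Day 2, adjusted p = 0.585) and the death gene Bax (47.1, 59.1, 114 and 53.1 CPM and 33.3, 53.4, 45 and 80.2 CPM, adjusted p = 0.493) did not pass.

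In the list of DNA repair genes 1 of 57 rose and none fell, beside 1.81% and 1.35% of all genes. DESeq2 called 8 upward and none downward, beside 7.99% and 10.3%. The gene that rose was Fanca of the Fanconi pathway that removes crosslinks, from 3.71, 3.48, 3.18 and 2.17 CPM to 8.72, 8.89, 8.85 and 11.8 CPM (log2 fold change 1.60 ± 0.24 SE, adjusted p = 0.0253). Of 41 cell death genes, on which DESeq2 made 9 calls upward and 5 downward, Bmf, which blocks Bcl2, rose by 0.95 on the log2 scale, and 3 fell. The latter were Bid at -0.70, Bik at -1.33 and cytochrome c (Cycs) at -0.87, the first a link from death receptors to mitochondria and the last also an electron carrier.

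**Figure D3:**
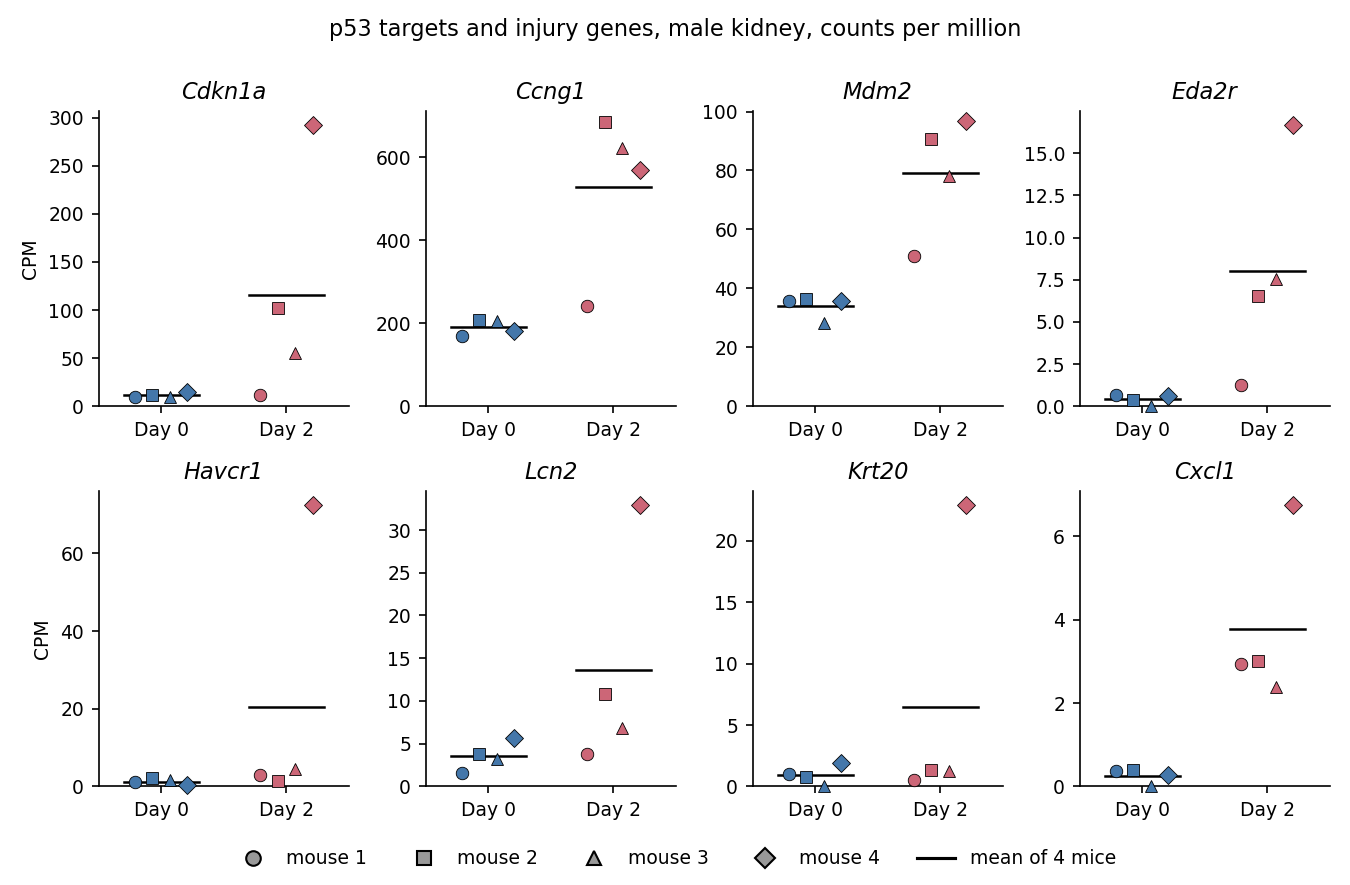
Level in CPM (linear axis from 0) of 4 p53 targets (top) and 4 injury or inflammation genes (bottom) in each male mouse on Day 0 (blue) and Day 2 (red), with a symbol for each mouse number and a line at the group mean. Day 2 mouse 1 is the lowest Day 2 mouse for the p53 targets, and the high Day 2 means of Havcr1, Lcn2 and Krt20 come from mouse 4.

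Immediate early genes, which encode short-lived transcription factors and feedback genes switched on within minutes of a stimulus, rose in 8 of 29 cases and fell in none, beside 1.81% and 1.35% of all genes, with a median log2 fold change of 0.93. DESeq2 called 15 upward and none downward, beside 7.99% and 10.3% of all genes. Fos was at 1.89, 2.92, 7.04 and 8.14 CPM on Day 0 and 31.5, 36.7, 18.4 and 26.9 CPM on Day 2 (log2 fold change 2.502 ± 0.45 SE, adjusted p = 0.0353), and Day 0 mice 3 and 4 were the highest of their group. Egr1 showed the same order, 5.47, 11.3, 26.1 and 29.5 CPM on Day 0 and 115, 111, 60.4 and 81.8 CPM on Day 2 (log2 fold change 2.34 ± 0.49 SE, adjusted p = 0.0445), and its change became 3.42 without these mice (adjusted p = 0.0051). Nr4a1, an orphan nuclear receptor, went from 3.35, 5.51, 5.36 and 17.1 CPM to 60.3, 62.8, 21.6 and 28.2 CPM (log2 fold change 2.47 ± 0.55 SE, adjusted p = 0.0491), and its change was 3.19 without Day 0 mouse 4 (adjusted p = 0.0188). Dusp1, a phosphatase that shuts off MAP kinases and is also raised by glucocorticoid, rose from 36.7, 57.7, 44.5 and 59.6 CPM to 189, 179, 155 and 118 CPM (log2 fold change 1.69 ± 0.21 SE, adjusted p = 0.0145), without overlap. Zfp36, which destabilises cytokine transcripts, rose by 1.53 ± 0.26 (SE) and Jun by 1.25 ± 0.26 (SE) on the log2 scale.

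Genes switched on by the glucocorticoid receptor rose in 5 of 21 cases and fell in none, beside 1.81% and 1.35% of all genes. DESeq2 called 10 upward and none downward, beside 7.99% and 10.3%. Per1 and Dusp1 are 2 of the 5. The others were Tsc22d3, an anti-inflammatory mediator (log2 fold change 1.23 ± 0.23 SE, adjusted p = 0.0398), Sgk1, a kinase that keeps sodium channels at the surface (log2 fold change 1.11 ± 0.20 SE, adjusted p = 0.038), and Hif3a (log2 fold change 2.26 ± 0.47 SE, adjusted p = 0.0445). Tsc22d3 was at 29.1, 34, 42 and 32.5 CPM on Day 0 and 52.4, 106, 68.4 and 95.9 CPM on Day 2, with mouse 1 again the lowest on Day 2. Adrenal markers, defining genes of the gland that makes glucocorticoid, summed to 4.72 to 74.1 CPM on Day 0 and 11.7 to 546.9 CPM on Day 2, highest in Day 2 mouse 2 and, on Day 0, in mouse 4. None of the 7 tested passed in edgeR (4 had an unadjusted p under 0.05, beside 29.0% of all genes), and DESeq2 gave no adjusted p for any of them. Their part in the levels of glucocorticoid-responsive genes was not tested.

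Markers of tubule injury were high in 1 Day 2 mouse. In a list of 30, 2 rose in edgeR and none fell, beside 1.81% and 1.35% of all genes. DESeq2 called 6 upward and none downward, beside 7.99% and 10.3%. The 2 were Cyr61 (log2 fold change 1.71 ± 0.25 SE, adjusted p = 0.0241) and Ctgf (log2 fold change 1.13 ± 0.24 SE, adjusted p = 0.0466), matricellular genes that respond to mechanical and YAP signals. Cyr61 was at 19, 35.2, 27.4 and 22.2 CPM on Day 0 and 105, 81.7, 57 and 96.9 CPM on Day 2, without overlap. The median of the list over the Day 0 mean was -0.03, 0.10 and -0.16 on the log2 scale in Day 2 mice 1 to 3 and 1.26 in mouse 4. That mouse had the highest Day 2 value for 27 of the 30 markers, beside 40.9% of all genes tested.

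Havcr1, the gene of KIM-1, had 1.03, 2.08, 1.68 and 0.263 CPM on Day 0 and 2.87, 1.48, 4.58 and 72.4 CPM on Day 2. Day 2 mice 1, 3 and 4 lay above every Day 0 mouse, mouse 4 by far the most, and mouse 2 lay within the Day 0 range. Its log2 fold change was 3.98 ± 1.28 (SE) with adjusted p = 0.0895, and with 1 mouse left out it lay between 1.21 and 4.37, lowest without Day 2 mouse 4. Lcn2, the gene of NGAL, had 1.58, 3.77, 3.18 and 5.64 CPM and then 3.77, 10.8, 6.79 and 33 CPM (log2 fold change 1.94 ± 0.66 SE, adjusted p = 0.1 in edgeR and 0.0174 in DESeq2). Its log2 fold change was 0.998 without Day 2 mouse 4. Krt20, a keratin of injured tubules, had 0.973, 0.787, 0 and 1.9 CPM and then 0.501, 1.37, 1.24 and 22.9 CPM, with a log2 fold change of 2.86 (adjusted p = 0.195) that was 0.19 without Day 2 mouse 4 and 3.51 without Day 0 mouse 4. None of these 3 passed in any of the 8 edgeR fits with 1 mouse left out, and DESeq2 gave no adjusted p for Havcr1 and Krt20.

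Of 27 chemokines and cytokines 2 rose and none fell in edgeR, beside 1.81% and 1.35% of all genes. DESeq2 called 7 upward and 2 downward, beside 7.99% and 10.3%. Those that rose were Cxcl1, a neutrophil chemoattractant, and Cxcl12, a chemokine of stromal cells. Cxcl1 was at 0.365, 0.394, 0 and 0.263 CPM on Day 0, which is at most 7 counts in a library, and at 2.94, 3, 2.38 and 6.75 CPM on Day 2 (log2 fold change 3.91 ± 0.76 SE, adjusted p = 0.0402). Every Day 2 mouse stood above every Day 0 mouse, and the change lay between 3.41 and 4.23 with 1 mouse left out. Cxcl12 went from 125, 147, 126 and 98.6 CPM to 278, 214, 239 and 272 CPM (log2 fold change 1.01 ± 0.17 SE, adjusted p = 0.0314). Neutrophil markers summed to 1.84 to 3.61 CPM on Day 0 and to 1.28 to 9.78 CPM on Day 2, highest in mouse 4, where Retnlg alone was at 6.16 CPM. The other 11 markers summed to 1.84 to 3.41 CPM on Day 0 and to 1.15 to 3.63 CPM on Day 2, and only 2 of the 12 were high enough to be tested. The RNA sensor Ddx58 was the only one of 38 interferon response genes that passed in edgeR (log2 fold change 1.01 ± 0.22 SE, adjusted p = 0.0481), and DESeq2 called 4 upward and 1 downward. None of 26 acute phase and complement genes did in edgeR. Among them, 3 had an unadjusted p under 0.05, beside 29.0% of all genes, and DESeq2 called 1 upward and 2 downward.

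In the list of extracellular matrix and fibrosis genes 6 of 41 rose and none fell, beside 1.81% and 1.35% of all genes. DESeq2 called 9 upward and none downward, beside 7.99% and 10.3%. Beside Cyr61 and Ctgf these included thrombospondin 1 (Thbs1, log2 fold change 1.03 ± 0.17 SE, adjusted p = 0.0314), tenascin C (Tnc, log2 fold change 1.59 ± 0.30 SE, adjusted p = 0.0397) and the plasminogen activator Plat (log2 fold change 0.996 ± 0.21 SE, adjusted p = 0.046). Tnc was at 4.26, 8.15, 4.06 and 7.74 CPM on Day 0 and 20.8, 13.5, 14.9 and 23.4 CPM on Day 2. The list median over the Day 0 mean was 0.96 in Day 0 mouse 4 against -0.15 to -0.49 in the other Day 0 mice, and the median log2 fold change of the list, 0.65 with all mice, was 1.16 without Day 0 mouse 4 and 0.25 without Day 2 mouse 4. 

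Cell type markers moved with these groups in part. Podocyte markers summed to 271 to 413 CPM on Day 0 and 505 to 698 CPM on Day 2, and endothelial markers to 798 to 873 CPM and 938 to 1383 CPM. Of these, Podxl (log2 fold change 1.02 ± 0.22 SE, adjusted p = 0.046) and Ptpro (log2 fold change 1.22 ± 0.19 SE, adjusted p = 0.0288) rose among 10 and Tek (log2 fold change 1.24 ± 0.18 SE, adjusted p = 0.0241) and Flt1 (log2 fold change 1.03 ± 0.19 SE, adjusted p = 0.0353) among 12, beside 1.81% of all genes. DESeq2 called 5 and 3 upward, beside 7.99% of all genes. Macrophage markers summed to 187 to 325 CPM on Day 0 and 147 to 325 CPM on Day 2, and lymphocyte markers to 9.39 to 33.6 CPM and 6.28 to 20.1 CPM. None of either passed in edgeR, with 1 of each list at an unadjusted p under 0.05, beside 29.0% of all genes. DESeq2 called 1 of each downward, beside 10.3%, and gave an adjusted p for 13 of 14 and 3 of 9. Liver markers summed to 203.5 to 530.3 CPM and 191 to 364 CPM, and of 10 tested the carrier protein Ttr fell (log2 fold change -1.76 ± 0.40 SE, adjusted p = 0.0495), beside 1.35% of all genes. Genes that pick up ribosomal RNA reads, a sign of library make-up, summed to 1804 to 4355 CPM on Day 0 and 5209 to 10810 CPM on Day 2, with Lars2 called (log2 fold change 1.59 ± 0.34 SE, adjusted p = 0.0445). The part of these markers in the differences between the groups was not tested.

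**Figure D4:**
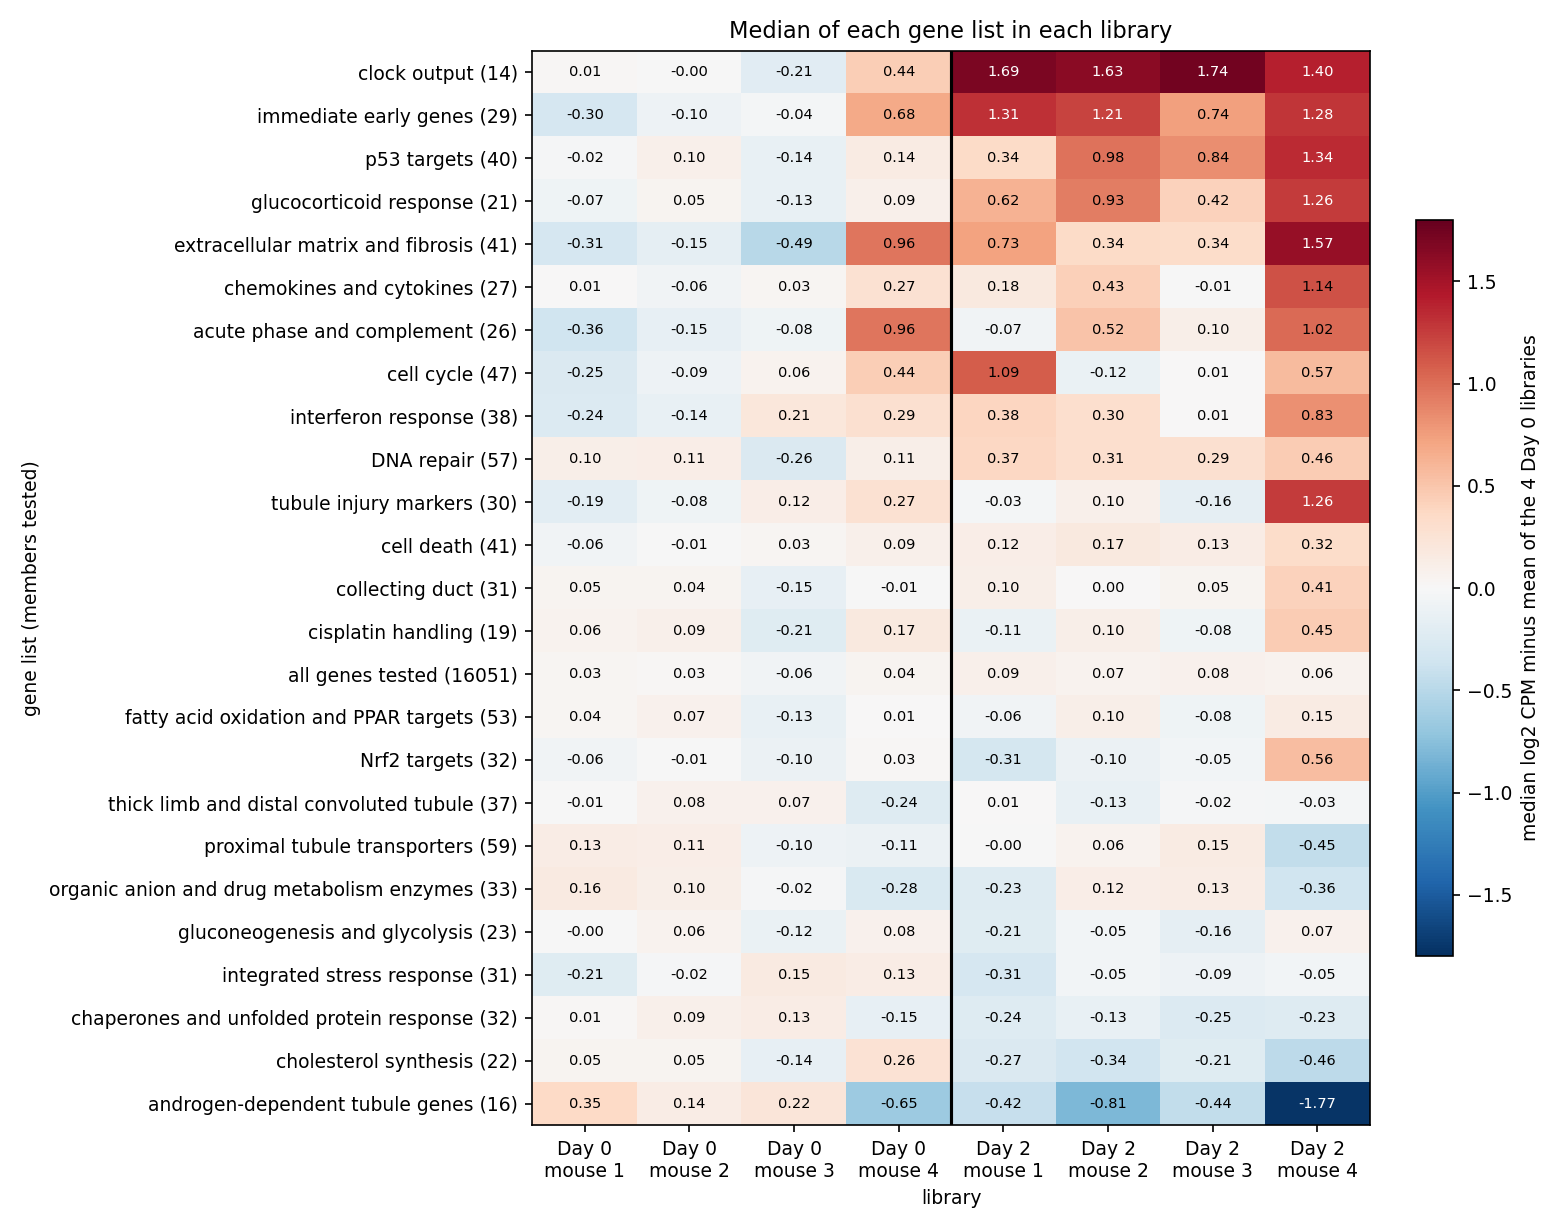
Median over the tested members of each gene list of log2 CPM minus the mean of the 4 Day 0 libraries (colour and number), for 24 lists and all genes tested, in the 8 male libraries. Clock output genes are high in all 4 Day 2 mice, p53 targets are lowest in Day 2 mouse 1, and injury markers stand out only in Day 2 mouse 4.

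Transport genes of the proximal tubule showed no call in edgeR. None of 59 carriers and endocytic receptors passed in edgeR, and their median log2 fold change was -0.11. Of these, 19 had an unadjusted p under 0.05, beside 29.0% of all genes, and DESeq2 called 5 upward and 9 downward, beside 7.99% and 10.3%. Slc34a1, the main phosphate carrier, was at 6377, 5880, 6524 and 5675 CPM on Day 0 and 4688, 4163, 4560 and 2815 CPM on Day 2. All Day 2 mice lay below all Day 0 mice, but the log2 fold change of -0.59 ± 0.22 (SE) did not pass in edgeR (adjusted p = 0.121), though it did in DESeq2 (adjusted p = 0.0179). Without Day 0 mice 3 and 4, 4 of the 59 rose and 11 fell, beside 9.99% and 11.2% of all genes. None of 19 genes of cisplatin handling passed either (5 at an unadjusted p under 0.05, 2 upward and 1 downward in DESeq2), with log2 fold changes of -0.36 ± 0.17 (SE) for the uptake carrier Slc22a2 and -0.16 ± 0.14 (SE) for the copper transporter Slc31a1. The organic anion carrier Slc22a6 was at -0.18 ± 0.19 (SE).

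Farther along the tubule, 2 of 37 genes of the thick limb and distal convoluted tubule fell and none rose in edgeR, beside 1.35% and 1.81% of all genes, and DESeq2 called 3 upward and 7 downward, beside 7.99% and 10.3%. Calb1, a calcium buffer of the distal tubule, went from 298, 340, 359.7 and 293 CPM to 184, 101, 102 and 173 CPM (log2 fold change -1.20 ± 0.23 SE, adjusted p = 0.0402). The claudin Cldn10 went from 201, 190.3, 184 and 117 CPM to 96.4, 105, 92.3 and 87.4 CPM (log2 fold change -0.86 ± 0.19 SE, adjusted p = 0.0466). For neither gene did the groups overlap. Umod, the thick limb protein uromodulin, had 1823, 1857, 524 and 320.5 CPM on Day 0 and 1286, 1350, 1359 and 1176 CPM on Day 2. Day 0 mice 1 and 2 were above all Day 2 mice and Day 0 mice 3 and 4 below them. Its log2 fold change was 0.19 with all mice and -0.53 without Day 0 mice 3 and 4 (adjusted p = 0.0258). Slc12a1, the furosemide-sensitive carrier of the same segment, was at 636, 609, 384 and 119.6 CPM on Day 0, lowest in mouse 4, and 745, 967, 933 and 398 CPM on Day 2. Changes of the thiazide-sensitive carrier Slc12a3 (-0.23 ± 0.24, SE), Egf (-0.54 ± 0.39), the magnesium channel Trpm6 (-0.43 ± 0.24) and the calcium channel Trpv5 (0.42 ± 0.34) did not pass. In the collecting duct list 2 of 31 rose and none fell in edgeR, and DESeq2 called 3 upward and 3 downward. The 2 were Sgk1 and the intercalated cell channel Aqp6 (log2 fold change 1.31 ± 0.29 SE, adjusted p = 0.0491), and the water channel Aqp2 did not pass (-0.16 ± 0.35).

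Slc16a1 encodes the lactate and ketone body carrier MCT1. It was at 87.3, 93.2, 115 and 99.1 CPM on Day 0 and 20.5, 21.8, 17.1 and 22.6 CPM on Day 2 (log2 fold change -2.27 ± 0.15 SE, adjusted p = 0.000385). Ppard, a nuclear receptor for fatty acids, went from 97.6, 115, 105 and 72.7 CPM to 18.8, 18.3, 18.1 and 28 CPM (log2 fold change -2.23 ± 0.21 SE, adjusted p = 0.00389). In both genes the groups were apart, and both passed in all 8 fits with 1 mouse left out, with changes between -2.33 and -2.19 for Slc16a1 and between -2.42 and -2.14 for Ppard. Its relative Ppara, the receptor that switches on fatty acid oxidation, moved the other way, from 9.18, 8.26, 10.8 and 23 CPM to 42.3, 35.2, 57.3 and 40.9 CPM (log2 fold change 1.78 ± 0.33 SE, adjusted p = 0.0387). Within the list of fatty acid oxidation genes and PPAR targets, Ppara and Acot3 (log2 fold change 1.03 ± 0.21 SE, adjusted p = 0.0428) were the only 2 of 53 that passed in edgeR, beside 1.81% of all genes that rose and 1.35% that fell. DESeq2 called 5 upward and 2 downward, beside 7.99% and 10.3% of all genes.

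Ethe1, a mitochondrial enzyme of sulphide breakdown, was at 202, 182, 210.5 and 207 CPM on Day 0 and 79.1, 50.6, 52.3 and 72.3 CPM on Day 2 (log2 fold change -1.66 ± 0.18 SE, adjusted p = 0.00738). Acmsd, which diverts tryptophan breakdown away from NAD synthesis, went from 166, 170.2, 137 and 194 CPM to 75, 47, 47.3 and 36.2 CPM (log2 fold change -1.70 ± 0.23 SE, adjusted p = 0.0207), while Kynu, an earlier enzyme of the pathway, rose from 3.04, 2.42, 3.14 and 5.84 CPM to 6.85, 21.6, 17.4 and 14 CPM (log2 fold change 2.06 ± 0.40 SE, adjusted p = 0.0402). Ggct, of glutathione turnover, fell with a log2 fold change of -1.72 ± 0.28 (SE, adjusted p = 0.0314). Acmsd was highest in Day 0 mouse 4 and Ggct in Day 0 mouse 3, and in both genes no Day 2 mouse reached a Day 0 mouse. These 4 genes were singled out after their values were seen.

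Sterol synthesis held 2 falls. The enzymes Msmo1 (log2 fold change -1.06 ± 0.12 SE, adjusted p = 0.0102) and Mvd (log2 fold change -0.95 ± 0.18 SE, adjusted p = 0.0387) fell among 22 tested in edgeR, beside 1.35% of all genes, with a list median of -0.41. DESeq2 called 7 of the 22 downward and none upward, beside 10.3% and 7.99%. Msmo1 was at 40.4, 37.8, 44.5 and 39.8 CPM on Day 0 and 19.1, 20.8, 20.1 and 18.2 CPM on Day 2. Of 16 androgen-dependent genes of the male proximal tubule, Odc1, the first enzyme of polyamine synthesis, fell from 2281, 1958, 1733 and 1336 CPM to 989, 554, 750.3 and 511 CPM (log2 fold change -1.38 ± 0.27 SE, adjusted p = 0.0402), the only call of the list in edgeR, while DESeq2 called 6 downward and none upward. The list median was -0.84. The abundant androgen-regulated gene Kap had 29290, 30680, 91260 and 13640 CPM on Day 0 and 16140, 12730, 13580 and 6154 CPM on Day 2, where the high Day 0 value is mouse 3, and it did not pass in edgeR (adjusted p = 0.0902), with a log2 fold change of -1.76. In DESeq2 its adjusted p was 0.00772. The change was -1.03 without Day 0 mouse 3 (adjusted p = 0.108), -2.05 without Day 0 mouse 4 (adjusted p = 0.0372) and -1.32 without Day 0 mice 3 and 4 (adjusted p = 0.0318). Slco1a1 did not pass in edgeR either (-1.28 ± 0.43, adjusted p = 0.0995), but its adjusted p was 0.0212 in DESeq2 and 0.0494 in edgeR without Day 0 mice 3 and 4. The epoxide hydrolase Ephx2 was the only one of 33 drug metabolism enzymes that passed in edgeR, with a log2 fold change of -0.87 ± 0.17 (SE, adjusted p = 0.0408), and DESeq2 called 2 upward and 3 downward.

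In edgeR several other lists held 1 call or none, beside 1.81% of all genes upward and 1.35% downward. The DESeq2 shares over all genes were 7.99% upward and 10.3% downward, and 29.0% of all genes had an unadjusted p under 0.05 in edgeR. The export pump Abcc1 rose among 32 Nrf2 targets (log2 fold change 1.05 ± 0.20 SE, adjusted p = 0.0387), of which DESeq2 called 3 upward and 5 downward, and Hmox1 of that list was at -0.36 ± 0.39. Atf4, the transcription factor of the integrated stress response, fell from 103, 113, 136 and 95.5 CPM to 65, 63.5, 55.5 and 67 CPM (log2 fold change -0.83 ± 0.15 SE, adjusted p = 0.035), the only one of 31 that passed, where DESeq2 called 5 upward and 2 downward. Hexokinase 1 (Hk1, log2 fold change 0.84 ± 0.19 SE, adjusted p = 0.0491) was the only call among 23 genes of glucose making and use, where DESeq2 made 2 calls upward and 2 downward. None of 47 cell cycle genes passed in edgeR (4 at an unadjusted p under 0.05) or among the 43 to which DESeq2 gave an adjusted p, and none of 32 chaperones passed in edgeR (15 at an unadjusted p under 0.05, 2 upward and 8 downward in DESeq2). Top2a, a marker of dividing cells, had 0.973, 2.64, 2.43 and 7.48 CPM on Day 0 and 11, 2.08, 2.48 and 6.49 CPM on Day 2, highest in Day 2 mouse 1.

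The remaining protein-coding DEGs with the largest changes were ranked under the same limits of overlap and level as Arntl and Npas2. Of these, Ces2e, a carboxylesterase, went from 13.2, 16.8, 13.2 and 7.61 CPM to 18.5, 133, 74.7 and 261 CPM (log2 fold change 3.26 ± 0.68 SE, adjusted p = 0.0445), and mouse 1 was again the low Day 2 mouse. Without Day 2 mouse 4 its change was 2.56 (adjusted p = 0.0832). Gdf7, 1700007K13Rik and Pcdhgb7 rose from group means of 0.0597, 0.297 and 0.137 CPM on Day 0 to 1.44, 6.65 and 1.24 CPM. Gdf7 and Pcdhgb7 had 3 counts or fewer in each Day 0 library, so no fold is given for them, and 1700007K13Rik, with 10 or fewer, had a log2 fold change of 4.51 ± 1.02 (SE, adjusted p = 0.0499), which was 3.61 without Day 2 mouse 4 (adjusted p = 0.0964). The fold of a gene with so few counts on Day 0 depends on the prior count of the fit, which holds for Cxcl1, Eda2r and Ddias too. Falls of this rank were Ctxn3 (log2 fold change -2.72 ± 0.51 SE, adjusted p = 0.0387), 2210011C24Rik (log2 fold change -2.22 ± 0.23 SE, adjusted p = 0.00619), the histone gene Hist2h3c2, the uncharacterised 4930524J08Rik, the phospholipid enzyme Pemt (log2 fold change -1.97 ± 0.42 SE, adjusted p = 0.0462) and Retn. Retn, the gene of the fat hormone resistin, had 19.5, 23, 43 and 83.6 CPM on Day 0, highest in mice 3 and 4, and 9.65, 13.9, 8.76 and 8.98 CPM on Day 2. Its log2 fold change of -2.03 became -1.07 without those mice (adjusted p = 0.0153). Of 10 adipocyte markers 1 passed in edgeR, Retn itself, beside 1.35% of all genes downward, while 6 had an unadjusted p under 0.05, beside 29.0%. DESeq2 called 1 upward and 4 downward, beside 7.99% and 10.3%. The list also holds Pck1, a gene of glucose making that proximal tubule cells express, at 941.4, 1144, 356.9 and 1443 CPM on Day 0 and 1333, 3541, 4528 and 3103 CPM on Day 2. The other 9 markers summed to 602.9, 612.7, 952.9 and 3312 CPM on Day 0 and to 455.9 to 707.6 CPM on Day 2. As for Retn, their sum was highest in Day 0 mouse 4 and next highest in mouse 3, and the part of fat in the Retn values was not tested.

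Dsp, the desmosome protein desmoplakin, was at 16.9, 19.7, 18.6 and 13.7 CPM on Day 0 and 48.5, 45.9, 52.2 and 63.2 CPM on Day 2 (log2 fold change 1.61 ± 0.17 SE, adjusted p = 0.00619), and Ppl, the related plakin periplakin, at 5.05, 6.01, 10.1 and 7.41 CPM and 22.2, 21.9, 23 and 26.2 CPM (log2 fold change 1.71 ± 0.22 SE, adjusted p = 0.0177). Dsp passed in all 8 fits with 1 mouse left out and Ppl in 3 of them. Rapgef5, an exchange factor of the Rap GTPases, was at 9.12, 9.44, 8.5 and 8.79 CPM on Day 0 and 25.9, 25.1, 25.5 and 30.3 CPM on Day 2 (log2 fold change 1.57 ± 0.14 SE, adjusted p = 0.00282). Pdxk, the kinase that makes active vitamin B6, rose with a log2 fold change of 1.95 ± 0.23 (SE, adjusted p = 0.0102). The groups of all 4 genes were apart, and Dsp and Rapgef5 were likewise picked after their values were seen.

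Calls were not spread evenly over the size of genes. Among 3384 protein-coding genes that span under 10 kb of the genome, 1.09% rose and 2.78% fell, with a median log2 fold change of -0.27. From 10 to 50 kb the shares were 1.62% and 1.18%, from 50 to 200 kb 2.99% and 0.648%, from 200 to 500 kb 3.26% and 1.03%, and over 500 kb 3.70% of 135 genes rose and none fell. The medians of these 4 classes were 0.04, 0.25, 0.21 and 0.07. Without Day 0 mice 3 and 4 the share that fell was 21.4% under 10 kb and 3.60% over 500 kb, and the share that rose was 4.33% and 20.1%. With DESeq2 the shares that fell were 20.98% and 7.41%, and those that rose 3.40% and 14.8%. Genes of unlike size also differ in level and in the number of counts behind each test, and the part of that was not tested.

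Transcript length separated a Day 0 library too. Genes with under 500 bases of summed exons had a median excess of 1.81 on the log2 scale in Day 0 mouse 3 over the median of the other 3 Day 0 mice. The excess was 1.11 for 500 to 1000 bases, 0.51 for 1000 to 2000 bases and -0.24 over 5000 bases. In mice 1, 2 and 4 the medians of these classes lay between -0.18 and 0.09. The first class holds only 19 genes.

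**Figure D5:**
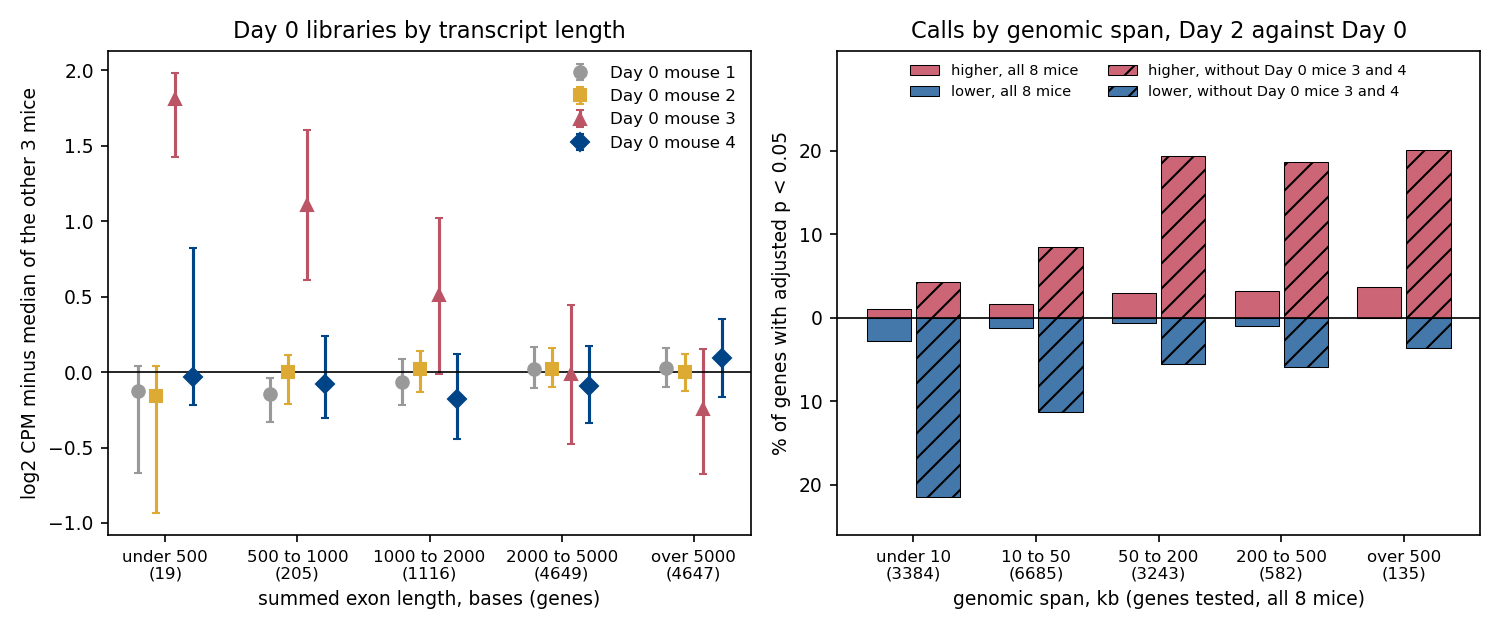
Left, excess of each Day 0 library over the median of the other 3 (log2 CPM, median with quartile bars) for genes grouped by summed exon length; mouse 3 is 1.81 above the others for the shortest class and -0.24 for the longest. Right, percent of protein-coding genes in each class of genomic span that passed upward (red) or downward (blue), with all 8 mice (plain) and without Day 0 mice 3 and 4 (hatched).

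Of the 1354 genes for which Day 0 mouse 3 was the farthest library, it was the low one for 916 and the high one for 438. A count was found there for 17985 genes, against 21188 to 21939 in the other Day 0 mice, although its total count was the highest of the 8 libraries. Its genes of largest excess were Gcat at 21.6, 22, 144 and 23.6 CPM in Day 0 mice 1 to 4, Zfp524 at 9.37, 9.44, 57.5 and 5.12 CPM, Gchfr at 55.8, 58.5, 338 and 33.1 CPM and Atp5e at 287, 329.9, 1899 and 328 CPM. Each stood far above the other mice in mouse 3. Ugt1a7c (95.3, 67.2, 0 and 119.9 CPM) and Selenoo (24.2, 22.3, 0 and 20.1 CPM) had no count there. Erythroid markers summed to 2467 CPM in mouse 3, to 495 to 584.5 CPM in the other Day 0 mice and to 8.57 to 187 CPM on Day 2. None of the 5 passed in edgeR, although all had an unadjusted p under 0.05, beside 29.0% of all genes. For 4 of them every Day 2 value lay below every Day 0 value, beside 11.8% of all genes. DESeq2 called 3 downward, beside 10.3%. The haemoglobin gene Hbb-bs was at 284, 263, 1174 and 195 CPM on Day 0 and 90.6, 8.56, 4.17 and 22.6 CPM on Day 2. All 4 haemoglobin genes were highest in Day 0 mouse 3, but Alas2, an enzyme of haem synthesis in red cell precursors and the fifth marker, was not, with 9.31, 7.65, 4.98 and 4.27 CPM on Day 0. The lists of skeletal muscle and pancreas markers each rested on 1 gene. Pvalb, a calcium buffer that distal tubule cells also make, was at 27.6, 29.1, 152.3 and 56 CPM on Day 0 and 15.3, 6.85, 8.25 and 18.2 CPM on Day 2, and the elastase gene Cela1 at 124.9, 121.9, 295.6 and 162.1 CPM on Day 0 and 88.8, 89.6, 65.5 and 78.2 CPM on Day 2. Both were highest in Day 0 mouse 3. The other 9 muscle markers summed to at most 9.30 CPM and the other 9 pancreas markers to at most 0.838 CPM in any of the 8 libraries. No member of either list passed in edgeR (1 of 3 and 1 of 1 tested had an unadjusted p under 0.05), and DESeq2 called 1 of each downward.

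Day 0 mouse 4 was set off from the other Day 0 mice by adrenal and fat transcripts. Adrenal markers summed to 74.08 CPM in that library and to 27.96, 546.9, 19.4 and 11.72 CPM in Day 2 mice 1 to 4. The adrenal genes Cyp21a1 (0, 0, 0 and 4 CPM), Cyp11b1 (0, 0, 0 and 2.3 CPM), Cyp11a1 (0.122, 0.169, 0 and 4 CPM) and Chga (0, 0, 0 and 2.3 CPM) were its largest excesses on the log2 scale among protein-coding genes that average 5 CPM or more over the 8 libraries, a mean they reach through Day 2 mouse 2. Dbh (29.9 CPM) and Th (18.5 CPM), enzymes of catecholamine synthesis, were higher in Day 0 mouse 4 and without a count in the other Day 0 mice, but lay under that mean. The 9 adipocyte markers other than Pck1 summed to 3312 CPM there against 602.9 to 952.9 CPM in the other Day 0 mice, and the brown fat gene Ucp1 was at 19.9, 12.2, 21.6 and 242 CPM. Its largest deficits were Nt5c3 (64, 62.9, 84.8 and 1.38 CPM) and Cyp7b1 (251, 289, 262 and 9.78 CPM). Distal nephron markers summed to 1857 CPM in mouse 4, 3044 CPM in mouse 3 and 4053 and 4163 CPM in mice 1 and 2. Reads of Xist, the transcript of the silenced X chromosome in females, numbered 242 in mouse 4 against 0 to 50 in the other 7 male libraries and 1398 to 14054 in the 8 female libraries of Day 0 and Day 2.

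Mice 1 and 2 of Day 0 differed in single genes. Mouse 1 was high for Cish (71.7, 15.7, 1.59 and 9.84 CPM), a gene induced by growth hormone, and for Cyp26b1 (49.5, 13.1, 12.1 and 14.7 CPM), which breaks down retinoic acid, and was also high for Entpd4b and Angptl7. It was low for Bcl6 (9.31, 33, 34.8 and 56.1 CPM), which growth hormone represses, and for Hba-a2. Mouse 2 was high for Tnn (4.93, 11.9, 1.05 and 3.54 CPM), Fcgbp, Ces2b and Cyp24a1, and low for Prlr (5.29, 2.19, 7.66 and 13.6 CPM) and Ces1g. Counts of Gapdh, a gene with many near-identical pseudogenes among which reads can be split, were at 77.5, 239, 758 and 5.71 CPM on Day 0 and 95.1, 142, 6.28 and 7.46 CPM on Day 2, and the ranges of the days overlapped.

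Leaving out Day 0 mouse 4 added 365 DEGs and lost 5. Hipk2, a kinase that activates p53, was added with 14.2, 12.7, 14 and 52.7 CPM on Day 0 and 58.9, 40.8, 58.9 and 53.7 CPM on Day 2, where mouse 4 alone was at the Day 2 level, and its log2 fold change went from 1.19 to 1.96. Vps13c (4.5, 3.37, 2.72 and 15.6 CPM on Day 0) did likewise, from 1.52 to 2.40. Cyyr1 was added too, with mouse 4 the highest Day 0 mouse but below every Day 2 mouse, while Peg3 passed in either case and crossed the 1.5 limit (1.47 to 1.56). Leaving out Day 0 mouse 3 added 173 and lost 18. Tll1 (0.608, 0.618, 2.01 and 0.722 CPM on Day 0, 3.84, 3.26, 3.62 and 2.7 CPM on Day 2) was added, with a change of 1.73 before and 2.34 after, whereas Bhlhe40, Ptpn14 and the antimicrobial gene Defb1 were lost, since they passed in both fits but fell short of the fold limit. Their changes moved from 1.56 to 1.38, from 1.53 to 1.33 and from -1.51 to -1.24. Without mouse 1 or mouse 2 no DEG was added and 105 or 100 were lost. Of the calls lost, those with the smallest adjusted p in the reduced fit were Dleu7 (-1.68 with all mice), Dusp1, Pdxk and Ppl for mouse 1 and Dusp1, Dleu7, Arntl and Ciart for mouse 2.

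Whether males and females differed in their change to Day 2 was asked with the interaction of sex and day over 16 libraries, 8 of them the males above. None of 17467 genes passed (0.0%), the smallest adjusted p was 0.151, and 738 had an unadjusted p under 0.05. The DESeq2 Wald test gave 16 DEGs in the same design and limma voom 376. Among the genes described here, Npas2 differed by -3.13 ± 0.54 (SE) on the log2 scale between the changes of males and females (adjusted p = 0.151), Ppard by -1.58 ± 0.28 (adjusted p = 0.151) and Per1 by 1.60 ± 0.28 (adjusted p = 0.151). Per1 was at 63 ± 16.8 CPM in Day 0 females and 113 ± 23.9 CPM in Day 2 females (SD, n = 4), where the males went from 16.2 ± 2.58 to 89.3 ± 8.55 CPM. The Day 0 females carried the label cisplatin and the Day 0 males the label NA.

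Day 3 was compared with Day 2 to ask what differed a day later, using the same Day 2 mice. None of 16232 genes passed (0.0%), the smallest adjusted p was 0.0877, and 1410 had an unadjusted p under 0.05, while DESeq2 gave 19 DEGs and limma voom 1. Npas2 was at 1.11 ± 0.337 CPM on Day 2 and 4.86 ± 0.367 CPM on Day 3 (SD, n = 4), a difference of 1.97 ± 0.22 (SE) on the log2 scale with adjusted p = 0.0877. Slc16a1 differed by 0.23 ± 0.10 (adjusted p = 0.573) and Per1 by -0.34 ± 0.26 (adjusted p = 0.644). A p above the threshold does not show that the levels of Day 2 were kept.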

How the data were processed

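RNA of whole kidney was sequenced from 4 mice for each sex and day (Day 0, 2, 3 and 5). The authors deposited 1 table of raw read counts for 54532 genes in the 32 libraries, a count being the number of reads assigned to a gene, and the submitters' processing notes name HTSeq and DESeq2 without a version. The methods name genome build GRCm38 and the notes GRCm39 (mm39), while 53585 of 54495 genes shared with the GENCODE M21 annotation of GRCm38 have the same start and end in the table. Whether counting used strand, and the hour of collection, were not given in the sources used here.

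Groups, mouse numbers and treatments were taken from the labels, and mice were separate animals by the methods. The 8 male Day 0 and Day 2 libraries were fitted in edgeR 4.0.16 (R 4.3.3) with TMM factors, filterByExpr, which kept 16051 genes, and the robust quasi-likelihood test, with Benjamini-Hochberg adjustment over all genes kept. All adjusted p values are from edgeR unless another tool is named. For a DEG the log2 fold change also had to exceed 1.5 in size, beside an adjusted p under 0.05. CPM values use TMM-scaled library sizes. No fold is given for Gdf7 and Pcdhgb7, with 3 counts or fewer in each Day 0 library. The sex-by-day interaction (16 libraries) and Day 3 against Day 2 were fitted in the same way. Both share the Day 2 males with the main comparison. Alternatives were DESeq2 1.42.0 (size factors and Wald test, which gave no adjusted p for 1373 of the genes), limma 3.58.1 voom with quality weights, no filter, 10 counts in every library, exclusion of mitochondrial, rRNA-like and erythroid genes, all 4 male groups in 1 fit, an absolute log2 fold change over 1, mouse number as a block, and each mouse left out. The fits without Day 0 mice 3 and 4 were added after the data were seen.

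The 24 gene lists and 14 marker lists were chosen with earlier results of these data known, as was the comparison itself. They are described by counts and medians only. Genes were named by rule. These were the 10 largest rises and 10 largest falls among protein-coding DEGs whose groups do not overlap and whose higher group averages 1 CPM or more, up to 5 members of each list that passed in each direction, a set of kidney and injury genes, the genes farthest out in each Day 0 library and those whose call changed most when it was left out. Named after their values were seen were Ethe1, Dsp, Rapgef5, Acmsd, Ggct, Kynu, Nr1d2, Usp2, Hlf, Nr1d1, Bhlhe41, Nfil3, Gtse1, Egr1, Nr4a1, Ttr, Ucp1, Hbb-bs, Podxl, Ptpro, Tek, Flt1, Lars2, Pck1, Pvalb, Cela1, Retnlg, Alas2, Dbh and Th.

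A library counted as farthest from its group for a gene when its gap passed Dixon's 95% limit and the group's range was at least 1 on the log2 scale. Promoter windows came from the RefSeq table for GRCm38.p6. No pair of libraries shared the count of more than 0.630% of genes with 100 counts or more. The fits were tested on simulated data before use.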

Additional observations from a re-analysis of the deposited data

Results flagged for a closer look

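In 21 of 226 groups of 4 mice, 1 mouse lay far from the other 3 by Dixon's test at the 95% level, which by chance marks about 1 group in 20. The groups are the Day 0 and Day 2 values of the genes listed with a change between the days. They include Hbb-bs, Tll1, Hipk2, Vps13c and other genes that were named for their values in 1 Day 0 library or because its omission changed their call, so the count is no test of outlying mice. Day 2 mouse 4 was the high mouse for Havcr1 (72.4 CPM), Krt20 (22.9 CPM), Cxcl1 (6.75 CPM), Fanca (11.8 CPM), Ppard (28.0 CPM), Aqp2 (799 CPM) and Rapgef5 (30.3 CPM), and the low mouse for Cycs (148.0 CPM). Day 2 mouse 1 was the low mouse for Ddias (1.40 CPM) and Day 2 mouse 2 for Pcdhgb7 (0.852 CPM).

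On Day 0, mouse 4 was the high mouse for Ppara (23.0 CPM), Nr4a1 (17.1 CPM), Hipk2 (52.7 CPM) and Vps13c (15.6 CPM), each with a higher mean on Day 2, and the low mouse for Ephx2 (396 CPM) and Dleu7 (28.5 CPM). Day 0 mouse 3 was the high mouse for Tll1 (2.01 CPM) and the haemoglobin gene Hbb-bs (1174 CPM), and the low mouse for Mdm2 (28.2 CPM), Abcc1 (8.67 CPM) and Pcdhgb7 (0 CPM). Why these mice stood apart was not tested.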

How the results depend on the processing

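Against 115 DEGs in the comparison of Day 2 with Day 0, the count was 357 with the DESeq2 Wald test, 535 with limma voom, 545 with all 4 male groups in 1 fit and 276 at an absolute log2 fold change over 1. It was 10 to 475 with 1 mouse left out, 471 without Day 0 mice 3 and 4, and 536 without them in DESeq2. DESeq2 size factors (115), no filter (101), 10 counts in every library (108) and exclusion of mitochondrial, rRNA-like and erythroid genes (113) moved it by less than 1.5 times. With mouse number as a replicate block the count was 5, and 4038 genes had an unadjusted p under 0.05. The numbers were not taken as pairs, since the deviations of same-numbered mice from their group means correlated at 0.07, -0.01, -0.04 and 0.19, and 3 of the 4 Day 0 mice correlated best with another number. The sex interaction, with 0 DEGs, gave 16 in DESeq2, 376 in limma voom and 0 to 1 with 1 mouse left out. Day 3 against Day 2, with 0, gave 19 in DESeq2, 1 in limma voom, 1 without a filter, 1 under the replicate block and 0 to 1 with 1 mouse left out. Why these counts moved was not tested.

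Among the genes described for their change between the days, direction turned for 4, none of which had passed. Except for Hbb-bs, genes named only because 1 Day 0 library lay far out were not included. The log2 fold change of Trp53 was -0.13 in limma voom, -0.088 without Day 0 mice 3 and 4 and -0.085 without them in DESeq2. That of Umod was -0.34 in limma voom, -0.066 without Day 0 mouse 3, -0.12 without mouse 4 (range with 1 mouse left out -0.12 to 0.54), -0.53 without both and -0.53 without both in DESeq2. Trpv5 was at -0.13 in limma voom and Aqp2 at 0.094 without Day 0 mouse 3 (range with 1 mouse left out -0.52 to 0.094). With 4 mice a group, a 2-sided exact permutation test of 1 gene cannot go below p = 0.0286.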
